A study of Mus musculus with 14 samples.

Results

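Antioxidant and Nrf2 target genes were followed across cultured mouse oligodendrocyte precursor cells (OPCs) that were differentiated into oligodendrocytes (OLs) with or without knockdown (KD) of Secisbp2l, also called Sbp2l. The 10 genes, taken by symbol from a table of 23427 genes, were Nfe2l2, Hmox1, Nqo1, Gclc, Gclm, Gsr, Srxn1, Txn1, Slc7a11 and Prdx1. None of the 10 encodes a selenoprotein, so their mRNA levels address whether the transcripts of oxidative stress defence moved after loss of a relative of the selenoprotein synthesis factor Secisbp2.

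Messenger RNA was sequenced in 14 libraries from wild-type C57BL/6J cells, with 2 libraries in each of 7 groups. OPCs were harvested before differentiation (Day0) or after growth factor withdrawal and addition of the thyroid hormone T3 (Day3). The Day3 cells were left alone (Non-treated), given the transfection step without an siRNA (Mock), given either of 2 non-targeting siRNAs (NC siRNA #1 and NC siRNA #2), or given an siRNA against Secisbp2l (siSbp2l) or against Pdgfra (siPdgfra), the receptor that keeps OPCs in the precursor state. Per the study's methods, the cells were immunopanned from the pooled cortices of several pups, each KD was transient, and the reagents included the thiol antioxidant N-acetyl cysteine and the selenium source sodium selenite.

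Nrf2, the product of Nfe2l2, is a transcription factor that is held at a low level in the cytoplasm by Keap1, which hands it to a ubiquitin ligase. Oxidants and electrophiles modify Keap1, so that Nrf2 accumulates, pairs with a small Maf protein and binds antioxidant response elements near its target genes. The targets make glutathione, recycle thioredoxin and peroxiredoxin, and break down haem and quinones. Oligodendrocytes hold much iron and make much lipid, and are known to be sensitive to oxidative damage.

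The genome sequence around the start sites is shown for the genes in which the core of an antioxidant response element lay close to the start. RefSeq promoter windows of 300 bases (GRCm38.p6, from 250 bases before to 50 bases after the start) were matched by symbol for 7 of the 10 genes, which left out Hmox1, Gsr and Gclc. The core TGACNNNGC was searched on both strands. It was found in 4 of these 7 windows, and in 13.99% of the 27025 genes and 12.4% of the 32851 windows of the whole table. The core is in capitals below, each sequence reads along the strand of its gene, and the windows of Nqo1, Txn1 and Slc7a11 held no such letters.
Nfe2l2: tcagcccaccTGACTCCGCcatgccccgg
Gclm: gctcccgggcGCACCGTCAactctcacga
Srxn1: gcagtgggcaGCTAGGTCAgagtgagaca
Prdx1: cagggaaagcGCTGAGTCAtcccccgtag
These stretches lay at chr2:75704885-75704913 on the minus strand for Nfe2l2, and on the plus strand at chr3:122245413-122245441 for Gclm, chr2:152105542-152105570 for Srxn1 and chr4:116685456-116685484 for Prdx1. The core began 240 bases before the start of Nfe2l2, 134 bases before that of Gclm and 133 bases before that of Prdx1, and at base 29 of the Srxn1 gene. It read backward in Gclm, Srxn1 and Prdx1, and in Prdx1 it overlapped the AP-1 element TGANTCA. AP-1 elements were present in 2 of the 7 windows and in 8.97% of the genes with a window.

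The libraries held 6555944 to 31565422 fragments, as recovered from the steps between low FPKM values, so a gene near 1 FPKM was counted with far less precision than Txn1 or Prdx1. The KD was seen in both of its target genes. Secisbp2l was at 3.82 and 3.91 FPKM in siSbp2l against 135 to 255 FPKM in the 8 control libraries, and Pdgfra was at 2.69 and 3.30 FPKM in siPdgfra against 32.4 to 72.1 FPKM. The summed FPKM of 6 OL markers was 392 to 435 at Day0, 4617 to 8696 in the Day3 controls, 1596 to 1780 in siSbp2l and 4094 to 4736 in siPdgfra. That of 5 OPC markers was 742 to 787 at Day0, 228 to 483 in the controls, 435 to 454 in siSbp2l and 102 to 113 in siPdgfra. The OPC sum includes Pdgfra, the target in siPdgfra, which averaged 147 FPKM in siSbp2l and 32.5 to 67.4 in the control groups. Lhfpl3, the largest part of the control sums, averaged 72.2 FPKM at Day0, 137 to 222 in the control groups and 45.2 in siPdgfra. Of 8 astrocyte markers, Gja1, Gjb6 and Aqp4 stayed under 1 FPKM in every library, and the sum of the 8 was 66.9 to 69.3 at Day0, 103 to 177 in the controls, 125 to 132 in siSbp2l and 47.8 to 48.9 in siPdgfra. Endothelial and pericyte or fibroblast markers, and 6 of 8 microglia markers, were under 1 FPKM in every library, while the sum of 6 neuron markers was 27.4 to 29.3 at Day0, 47.8 to 276 in the controls, 199 to 201 in siSbp2l and 236 to 240 in siPdgfra. Most of the neuron sum was Tubb3, which averaged 23.7 FPKM at Day0, 66.1 to 270 in the control groups and 194 in siSbp2l. Stmn2 and Slc17a7 stayed under 1 FPKM in every library. Snap25 averaged 0.215 FPKM in siSbp2l, below the control groups at 0.371 to 0.697, while Syt1 and Rbfox3 were above them. In bulk samples, fewer cells of a type and less RNA per cell cannot be told apart. The part of these shifts in cell state in the results that follow was not tested. The Non-treated libraries differed from each other more than other replicates did: over the tested genes, their log2 differences had an SD of 0.460 there and 0.148 to 0.20 in the other groups.

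Values per kilobase of transcript (FPKM, scaled to library size) allow levels to be compared between genes. Prdx1 (chr4:116685599-116700000) and Txn1 (chr4:57943373-57956411) were the most abundant of the 10 at every stage, at 97.8 to 232 FPKM and 48.9 to 217 FPKM over the 14 libraries. Nfe2l2 (chr2:75675519-75704641), Hmox1 (chr8:75093618-75100593), Gclc (chr9:77754535-77794489), Gclm (chr3:122245592-122266648) and Gsr (chr8:33653238-33698162) lay between 9.86 and 41.7 FPKM in all libraries. Srxn1 (chr2:152105524-152111376) ranged from 4.33 to 12.9 FPKM and Slc7a11 (chr3:50364936-50443613) from 1.24 to 3.25 FPKM. Nqo1 (chr8:107388225-107403205) was nearly silent, with at most 0.224 FPKM. All coordinates of genes are from mm10 and each of these genes has a single transcript model in the deposited annotation. Txn1 and Prdx1 have processed pseudogenes elsewhere in the genome, so their counts can include shared fragments.

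**Figure D1:**
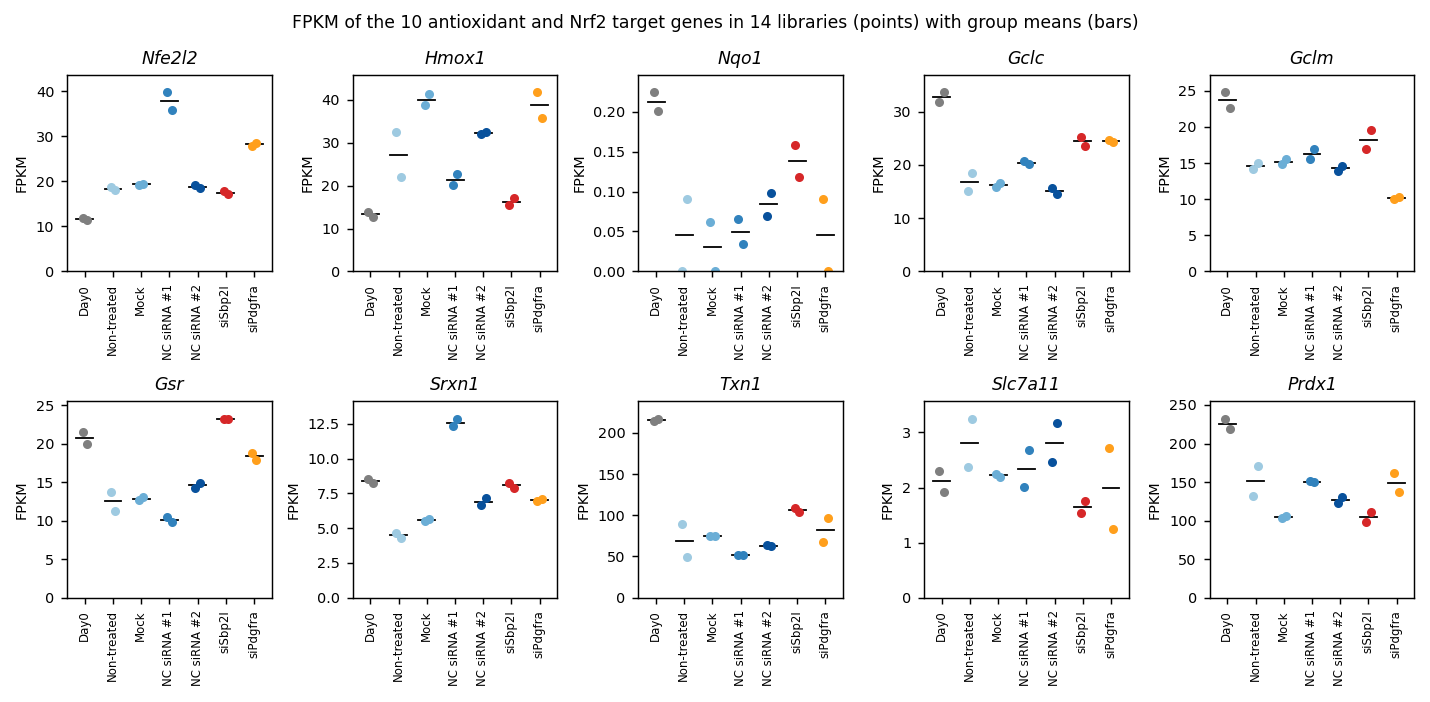
FPKM (y axis, from 0, own scale per gene) of each of the 10 genes in the 7 groups (x axis). Points are the 2 libraries of a group and bars are their mean. Gsr and Txn1 in siSbp2l lie above all Day3 controls, Hmox1 lies below them, and NC siRNA #1 stands alone for Nfe2l2 and Srxn1.

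Secisbp2l KD moved these genes in both directions, by less than 2-fold each when set against the mean of the 4 Day3 control groups. Gsr, Txn1, Gclc, Gclm and Srxn1 were higher in siSbp2l, whereas Hmox1, Nfe2l2 and Prdx1 were lower. Of these, Srxn1 lay inside the range of the controls, and Nfe2l2 was clearly lower only than NC siRNA #1. Of the 9 genes with enough signal to be tested (limma on log2(FPKM + 1), Benjamini-Hochberg adjusted p under 0.05), 5 were past the threshold higher and 3 lower, against 35.5% and 17.9% of all 11650 tested genes. Without siSbp2l replicate 1 or replicate 2, 5 or 4 of the 9 passed. None of the 9 reached 2-fold, against 7.19% of all genes that did so in either direction. Their median log2 difference was 0.20 and that of all tested genes was 0.15, so the whole table was shifted upward in siSbp2l and each value below is to be read relative to that shift. With median-ratio scaling of the libraries, which removes the shift, 3 of the 9 were higher and 4 were lower, and the share of higher calls among all called genes went from 66.4% to 47.5%.

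**Figure D2:**
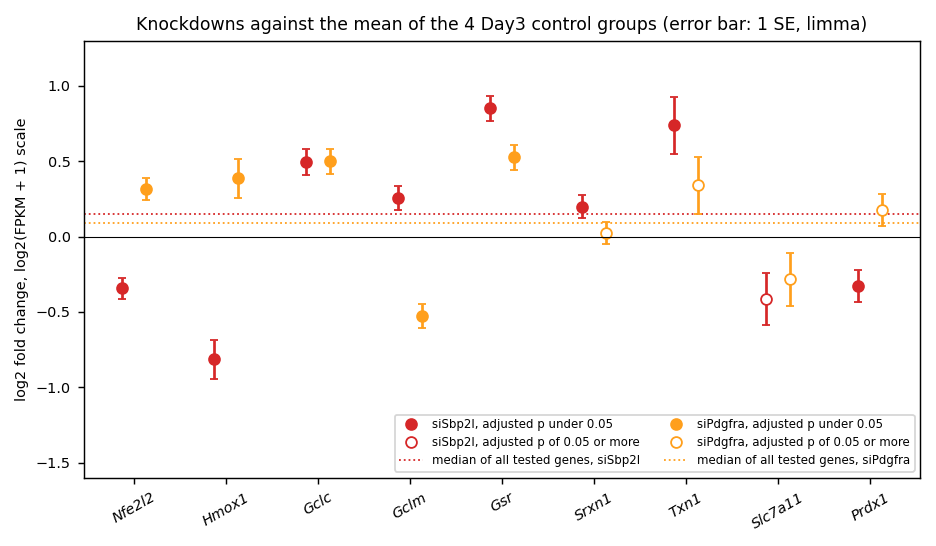
Log2 fold change on the log2(FPKM + 1) scale (y axis) of the 9 tested genes (x axis) in siSbp2l (red) and siPdgfra (orange) against the mean of the 4 Day3 control groups, with bars of 1 SE. Filled points have an adjusted p under 0.05, and dotted lines mark the median of all tested genes, 0.15 and 0.09. Gsr at 0.85 and Hmox1 at -0.81 are the outermost points of siSbp2l.

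Nfe2l2 itself was not raised by Secisbp2l KD. Its mRNA was at 17.8 and 17.2 FPKM in siSbp2l, 18.7 and 18.0 in Non-treated, 19.3 and 19.5 in Mock, 39.8 and 35.8 in NC siRNA #1 and 19.1 and 18.5 in NC siRNA #2. Both siSbp2l libraries lay below all 8 control libraries, by a narrow margin except against NC siRNA #1, which stood far above every other group. The log2 difference from the mean of the 4 controls was -0.34 ± 0.07 (SE, n = 2 per group, limma adjusted p = 0.00232). Against single control groups, only the difference from NC siRNA #1 passed (-1.07, limma adjusted p = 1.01e-05), while those from Non-treated, Mock and NC siRNA #2 were -0.06, -0.14 and -0.10 (adjusted p = 0.570, 0.228 and 0.394).

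Among the genes of cystine uptake and glutathione, Gsr, which encodes the glutathione reductase that restores reduced glutathione with NADPH, rose the most. Gsr was at 23.1 and 23.2 FPKM in siSbp2l, 13.8 and 11.3 in Non-treated, 12.7 and 13.04 in Mock, 10.4 and 9.86 in NC siRNA #1 and 14.3 and 14.9 in NC siRNA #2. The siSbp2l libraries were well apart from every control, and the ratio of the siSbp2l mean to the mean of the control groups was 1.85. The log2 difference was 0.85 ± 0.08 (SE, n = 2 per group, limma adjusted p = 1.87e-05). Gsr passed for every control group on its own, with a log2 difference of 0.85 from Non-treated, 0.80 from Mock, 1.12 from NC siRNA #1 and 0.64 from NC siRNA #2. It was the only one of the 9 tested genes to pass in the same direction against all 4 groups, where 13.9% of all genes were higher and 7.94% lower. With median-ratio or upper-quartile scaling, Hmox1 also passed in all 4, on the lower side. Without Non-treated replicate 1, Gsr, Gclc and Txn1 were higher and Hmox1 lower in all 4, and without Non-treated replicate 2, Gsr and Gclc were higher and Hmox1 lower.

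Gclc and Gclm encode the catalytic and modifier subunits of glutamate-cysteine ligase, which makes the rate-limiting step of glutathione synthesis. Gclc was at 25.3 and 23.6 FPKM in siSbp2l, 15.1 and 18.5 in Non-treated, 15.9 and 16.6 in Mock, 20.7 and 20.1 in NC siRNA #1 and 15.6 and 14.6 in NC siRNA #2, with no overlap between siSbp2l and the controls. The log2 difference of Gclc was 0.50 ± 0.08 (SE, n = 2 per group, limma adjusted p = 0.000738), and it passed against 3 of the 4 groups, with 0.25 and an adjusted p of 0.0806 against NC siRNA #1. Gclm was at 16.9 and 19.5 FPKM in siSbp2l and at 13.9 to 16.9 FPKM in the controls, so the lower siSbp2l library only just cleared the highest control library. Its log2 difference of 0.26 ± 0.08 (limma adjusted p = 0.0191) was small, and with median-ratio scaling it was 0.095 with an adjusted p of 0.390. Without siSbp2l replicate 2 it was 0.16 (adjusted p = 0.266). Gclc kept its call under all 24 alternatives.

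Slc7a11, the cystine-importing chain of system xc-, was low in all libraries and was not raised. It was at 1.53 and 1.76 FPKM in siSbp2l and at 2.00 to 3.25 FPKM in the controls, below all of them. The log2 difference was -0.41 ± 0.17 (SE, n = 2 per group, limma adjusted p = 0.0705), which misses the threshold as deposited and passes it at -0.52 (adjusted p = 0.0355) after median-ratio scaling.

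In the thioredoxin branch, Txn1, the cytosolic thioredoxin that reduces protein disulfides, was higher. Txn1 was at 109 and 104 FPKM in siSbp2l, 89.1 and 48.9 in Non-treated, 74.8 and 75.4 in Mock, 51.6 and 52.0 in NC siRNA #1 and 63.7 and 62.2 in NC siRNA #2. Both siSbp2l libraries were above all controls, and the libraries lay far apart within Non-treated and within siPdgfra (67.2 and 96.6 FPKM), which share 1 estimate of the spread with the others. The log2 difference was 0.74 ± 0.19 (SE, n = 2 per group, limma adjusted p = 0.00821), and it passed against Non-treated, NC siRNA #1 and NC siRNA #2 but not against Mock (0.50, adjusted p = 0.120). Without siSbp2l replicate 1 or replicate 2 the difference was 0.71 or 0.77, with adjusted p-values of 0.0743 and 0.0538.

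Prdx1, a peroxiredoxin that uses thioredoxin to remove hydrogen peroxide, did not rise with Txn1. It was at 97.8 and 111 FPKM in siSbp2l, 132 and 170 in Non-treated, 103 and 106 in Mock, 151 and 150 in NC siRNA #1 and 122 and 131 in NC siRNA #2. The siSbp2l libraries overlapped those of Mock and lay below the other controls. The log2 difference from the mean of the controls was -0.33 ± 0.11 (SE, n = 2 per group, limma adjusted p = 0.0264). Without siSbp2l replicate 1 or replicate 2 it was -0.24 or -0.42, with adjusted p-values of 0.254 and 0.0560. It also missed the threshold without Mock replicate 2 (adjusted p = 0.0515), without NC siRNA #2 replicate 2 (0.0526) and without the Non-treated group as a control (0.0702).

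Srxn1, the sulfiredoxin that repairs overoxidized peroxiredoxins, depended on the control. It was at 8.28 and 7.87 FPKM in siSbp2l, 4.68 and 4.33 in Non-treated, 5.49 and 5.69 in Mock, 12.3 and 12.9 in NC siRNA #1 and 6.66 and 7.15 in NC siRNA #2. The siSbp2l libraries sat inside the range of the controls, above those that got no siRNA and below NC siRNA #1. The log2 difference from the mean was 0.20 ± 0.07 (SE, n = 2 per group, limma adjusted p = 0.0421) and fell short of the threshold in the same direction under 16 of 24 alternatives, and with both NC siRNAs as the only controls it was -0.19 (adjusted p = 0.0712). Against single groups it was 0.72 for Non-treated, 0.46 for Mock and -0.58 for NC siRNA #1, all past the threshold, and 0.20 for NC siRNA #2, which was not.

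Of the enzymes for haem and quinones, Hmox1, the inducible haem oxygenase and a sensitive target of Nrf2, was lower. Hmox1 was at 15.5 and 17.1 FPKM in siSbp2l, 32.5 and 21.9 in Non-treated, 38.8 and 41.3 in Mock, 20.1 and 22.6 in NC siRNA #1 and 32.1 and 32.6 in NC siRNA #2. The siSbp2l libraries lay below all controls, and the ratio of the means was 0.538. The log2 difference was -0.81 ± 0.13 (SE, n = 2 per group, limma adjusted p = 0.000501). It was largest against Mock (-1.25, limma adjusted p = 0.000213) and smallest against NC siRNA #1 (-0.37, adjusted p = 0.0847). Nqo1, the quinone oxidoreductase that is a common readout of Nrf2, could not be tested. It had 5 and 4 fragments in siSbp2l, 0 to 3 in each of the 8 control libraries, 3 and 0 in siPdgfra, and 11 and 7 at Day0, and counts this small allow no comparison.

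Seen library by library, 4 of the 9 tested genes (Gclc, Gclm, Gsr and Txn1) had both siSbp2l libraries above all 8 controls and 3 (Nfe2l2, Hmox1 and Slc7a11) had both below them. Of all tested genes 30.8% were above and 13.5% were below. After median-ratio scaling Gclm overlapped the controls and Prdx1 fell below them. Gclc then only just cleared them, at 21.4801 in its lower siSbp2l library against 21.4695 in the highest control library. Past 2-fold against single control groups were Gsr and Txn1, higher, and Nfe2l2, lower, against NC siRNA #1, and Hmox1, lower, against Mock. None was past 2-fold against Non-treated or NC siRNA #2. Of all genes, 9.86% were past 2-fold in either direction against NC siRNA #1, 8.01% against Mock, 10.6% against Non-treated and 7.67% against NC siRNA #2.

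**Figure D3:**
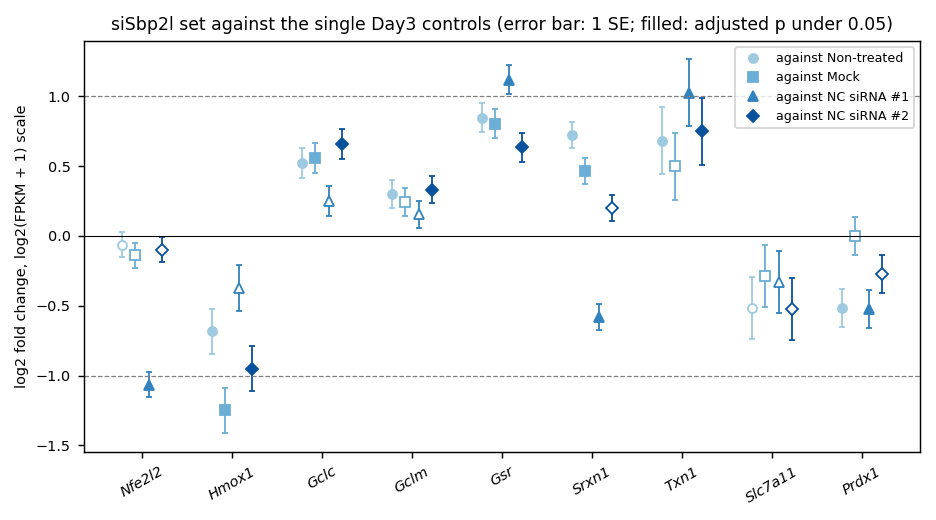
Log2 fold change on the log2(FPKM + 1) scale (y axis) of the 9 tested genes (x axis) in siSbp2l set against the 4 Day3 control groups singly, with bars of 1 SE. Filled symbols have an adjusted p under 0.05 and dashed lines mark 2-fold. Gsr is filled and positive against all 4 groups, from 0.64 to 1.12, while Nfe2l2 is filled against NC siRNA #1 alone.

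Pdgfra KD, an siRNA against another gene in the same cells, was compared in the same way. Compared with the mean of the same 4 controls, 4 of the 9 tested genes were higher (Gsr, Gclc, Hmox1 and Nfe2l2) and 1 was lower (Gclm), against 32.4% and 23% of all tested genes. None reached 2-fold, against 7.99% of all genes. Both KD groups were set against the same control libraries, so their values are given side by side and not as independent evidence.

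Gsr was at 18.7 and 17.9 FPKM in siPdgfra, a log2 difference of 0.53 ± 0.08 from the controls (SE, n = 2 per group, limma adjusted p = 0.000427), beside 0.85 in siSbp2l. Gclc was at 24.7 and 24.3 FPKM, with a log2 difference of 0.50 ± 0.08 (limma adjusted p = 0.000689), which is the same as in siSbp2l to 2 decimals. Gclm went the other way, to 10.0 and 10.2 FPKM, with a log2 difference of -0.53 ± 0.08 (limma adjusted p = 0.000305), so the subunits of glutamate-cysteine ligase moved in opposite directions in siPdgfra. The siPdgfra libraries lay above all 8 controls for Gclc and Gsr and below them for Gclm, and overlapped them for the other 6 tested genes. Of all tested genes 26.5% were above and 17.5% were below.

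Hmox1 was at 41.7 and 35.8 FPKM in siPdgfra, overlapping the libraries of Mock, with a log2 difference of 0.39 ± 0.13 (SE, n = 2 per group, limma adjusted p = 0.0269). It did not pass after median-ratio scaling (0.29, adjusted p = 0.0535), without siPdgfra replicate 1 (0.28, adjusted p = 0.233) or replicate 2 (0.49, adjusted p = 0.0552), without Mock replicate 1 (adjusted p = 0.0512), without NC siRNA #1 replicate 1 (adjusted p = 0.0517) or without the Non-treated group as a control (adjusted p = 0.0507). Nfe2l2 was at 27.8 and 28.6 FPKM, above all controls but NC siRNA #1, with a log2 difference of 0.32 ± 0.07 (limma adjusted p = 0.00356). With both NC siRNAs as the only controls this was 0.08 (adjusted p = 0.433). Txn1 at 67.2 and 96.6 FPKM, Prdx1 at 161 and 137, Slc7a11 at 2.73 and 1.24 and Srxn1 at 6.96 and 7.12 did not pass.

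Set directly against each other, siSbp2l and siPdgfra differed in 5 of the 9 tested genes. Gclm (0.78 ± 0.10, limma adjusted p = 0.000107) and Gsr (0.32 ± 0.10, adjusted p = 0.0248) were higher in siSbp2l, against 28.5% of all tested genes. Hmox1 (-1.20 ± 0.16, limma adjusted p = 0.000179), Nfe2l2 (-0.66 ± 0.09, adjusted p = 0.000162) and Prdx1 (-0.50 ± 0.14, adjusted p = 0.0109) were lower in siSbp2l, against 23.4% of all tested genes. Hmox1 was the 1 gene of the 9 past 2-fold, against 13.7% of all genes. The count was 3 without siSbp2l replicate 1 or without siPdgfra replicate 1. The difference in Gsr did not pass without any 1 of the 4 libraries compared (adjusted p = 0.0642 to 0.110), and that in Prdx1 did not pass without siSbp2l replicate 1 (0.0909) or siPdgfra replicate 1 (0.0897). Gclc (-0.0029 ± 0.11), Srxn1 (0.17 ± 0.09), Txn1 (0.40 ± 0.24) and Slc7a11 (-0.13 ± 0.22) did not pass, which does not show that they were equal.

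Most of these genes were lower in Non-treated Day3 cells than at Day0. These groups also differ in medium and time in culture, which cannot be told apart from differentiation here. Between Day0 and Non-treated Day3 cells, 6 of the 9 tested genes fell (Txn1, Gclc, Srxn1, Gsr, Gclm and Prdx1) and 2 rose (Hmox1 and Nfe2l2), against 38.6% and 28.4% of the 11874 genes tested in this comparison. The median log2 difference was -0.66 for the 9 genes and -0.12 for all tested genes. Txn1 was the 1 gene past 2-fold, against 26.6% of all genes in either direction. It was at 214 and 217 FPKM at Day0 and at 89.1 and 48.9 FPKM in Non-treated (log2 difference -1.69 ± 0.23, n = 2 per group, limma adjusted p = 5.18e-05).

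The glutathione genes fell by less. Gclc was at 31.9 and 33.6 FPKM at Day0 (log2 difference -0.93 ± 0.10, limma adjusted p = 7.71e-06), Gsr at 21.6 and 19.9 FPKM (-0.69 ± 0.10, adjusted p = 8.35e-05) and Gclm at 24.8 and 22.6 FPKM (-0.66 ± 0.10, adjusted p = 8.51e-05). Srxn1 at 8.57 and 8.24 FPKM (-0.77 ± 0.09, limma adjusted p = 1.07e-05) and Prdx1 at 232 and 219 FPKM (-0.59 ± 0.13, adjusted p = 0.00201) were also higher at Day0. Prdx1 missed the threshold in 1 of 22 alternatives. Nfe2l2 at 11.8 and 11.4 FPKM (0.62 ± 0.08, limma adjusted p = 4.46e-05) and Hmox1 at 13.9 and 12.6 FPKM (0.96 ± 0.16, adjusted p = 0.000227) were lowest at Day0 of all groups. The mRNA of Nfe2l2 and the mRNAs of most of its listed targets thus moved in opposite directions. Nrf2 protein was not measured in these data. Slc7a11 at 2.29 and 1.93 FPKM did not pass (0.29, adjusted p = 0.256).

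For Gclc, Gclm and Txn1, the siSbp2l level lay between the Day3 controls and Day0, with the libraries of siSbp2l apart from both. For Gclm the gap to the controls was very small, and it closed after median-ratio or upper-quartile scaling. That of Gclc nearly closed after median-ratio scaling. This position was not particular to siSbp2l. In siPdgfra, Gclc (24.7 and 24.3 FPKM) and Gsr (18.7 and 17.9 FPKM) also lay between the controls and Day0. Gsr in siSbp2l was above Day0. Hmox1 and Nfe2l2 in siSbp2l were also between Day0 and the Day3 controls, here from below. Prdx1 in siSbp2l lay at the low end of the Day3 groups, away from Day0. Slc7a11 in siSbp2l lay below both Day0 and the controls, and Srxn1 overlapped both. No test of siSbp2l or siPdgfra against Day0 was made. The share of all tested genes lying between the controls and Day0 was not computed. The position can therefore not be called a trait of these genes.

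The non-targeting siRNAs differed from each other in these genes, which bears on how any siRNA result is read. NC siRNA #1 against the mean of Non-treated and Mock gave 3 genes higher (Srxn1, Nfe2l2 and Gclc) and 2 lower (Hmox1 and Gsr) of 9, against 15.1% and 13.1% of all tested genes. Srxn1 rose by 1.17 ± 0.08 on the log2 scale (SE, n = 2 per group, limma adjusted p = 7.39e-06), the 1 gene of the 9 past 2-fold, against 3.34% of all genes. Nfe2l2 rose by 0.96 ± 0.08 (limma adjusted p = 1.92e-05), just under 2-fold, and Gclc by 0.29 ± 0.09 (adjusted p = 0.0381). Hmox1 (-0.59 ± 0.14, limma adjusted p = 0.0110) and Gsr (-0.29 ± 0.09, adjusted p = 0.0349) were lower. Without either library of Mock, NC siRNA #1, NC siRNA #2 or siSbp2l, 2 or 3 of the 9 passed instead of 5. NC siRNA #2 against the same groups gave 1 gene, Srxn1, higher by 0.39 ± 0.08 (limma adjusted p = 0.00639), against 13.7% of all genes. It lost this call without NC siRNA #2 replicate 2, and 3 or 2 genes passed without Non-treated replicate 1 or replicate 2.

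Between the non-targeting siRNAs, Nfe2l2 (0.97), Srxn1 (0.78) and Gclc (0.41) were higher in NC siRNA #1, and Hmox1 (-0.58) and Gsr (-0.48) were lower, with limma adjusted p-values from 4.36e-05 to 0.0297. Without any 1 of these 4 libraries, 2 or 3 of the 9 passed. Of all tested genes 10.1% were higher and 10.8% were lower. Mock and Non-treated did not differ past the threshold in any of the 9 genes by limma, where 3 of the 9 and 1924 of all genes had an unadjusted p under 0.05, and 0.215% of all genes passed. Without Non-treated replicate 1, 4 of the 9 passed.

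The wider pathway was read from lists, whose counts stand beside 35.5% higher and 17.9% lower of all tested genes in siSbp2l and 32.4% and 23% in siPdgfra. In siSbp2l against the mean of the controls, 4 of 16 tested other Nrf2 targets were higher and 5 were lower, with a median log2 difference of -0.08 beside 0.15 over all genes. Only Gstm1, a glutathione transferase, was past 2-fold, at -1.32 (limma adjusted p = 1.77e-05). In siPdgfra, 4 of the 16 were higher and 7 lower, and Gstm1 was again past 2-fold at -1.49 (adjusted p = 7.69e-06). Of 10 regulators of Nrf2, which include its inhibitor Keap1, the competing repressor Bach1 and the small Maf partners, 5 were higher and none lower in siSbp2l, and 5 were higher and 1 lower in siPdgfra, none of them past 2-fold. Their median log2 difference was 0.30 in siSbp2l and 0.24 in siPdgfra, beside 0.15 and 0.09 over all genes. Keap1, named here after its values were seen, was at 0.30 (limma adjusted p = 0.0552) in siSbp2l and -0.27 (adjusted p = 0.0793) in siPdgfra, neither past the threshold.

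Of 10 other glutathione genes, 4 were higher and 2 lower in siSbp2l, where Ggct, a gamma-glutamyl cyclotransferase, was past 2-fold at -1.10 (limma adjusted p = 8.13e-05). In siPdgfra 4 were higher and 1 lower, and Chac1, which degrades glutathione and is induced by Atf4, was past 2-fold at 2.08 (adjusted p = 9.2e-07). The 12 genes listed as other peroxide and superoxide enzymes had 3 higher and 1 lower in siSbp2l. In siPdgfra 3 were higher and 4 lower. None was past 2-fold on the log2(FPKM + 1) scale, which understates changes of low genes. Txnip, a low gene of this list, was named after its values were seen. It was at 1.60 and 1.74 FPKM in siSbp2l, 0.22 to 0.54 in the control libraries and 0.20 and 0.071 in siPdgfra. The median log2 difference of these 12 was 0.12 in siSbp2l, beside 0.15 over all genes, and 0.0091 in siPdgfra, beside 0.09.

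Among 6 tested antioxidant enzymes that are selenoproteins, 3 were higher and none lower in siSbp2l, and 3 were higher and 2 lower in siPdgfra. In siPdgfra Gpx1, a glutathione peroxidase, was past 2-fold at 1.29 (limma adjusted p = 0.000116), and so was Msrb1, a methionine sulfoxide reductase, at -1.44 (adjusted p = 9.01e-06). Txnrd1, the reductase of Txn1, was named after its values were seen. It averaged 99.3 FPKM in siSbp2l, 101 FPKM in siPdgfra and 55.9 to 69.9 FPKM in the control groups, with log2 differences of 0.69 and 0.71 (limma adjusted p = 7.05e-05 and 5.44e-05). Txnrd3, a low gene of this list whose change the log2(FPKM + 1) scale understates, was also named after its values were seen. Txnrd3 averaged 3.69 FPKM in siSbp2l, 1.17 to 1.68 in the control groups and 0.98 in siPdgfra. Of 8 genes of the Atf4 stress response, 3 were higher and none lower in siSbp2l, none past 2-fold, and 4 were higher in siPdgfra, where Asns (1.42, limma adjusted p = 3.33e-07) and Trib3 (1.15, adjusted p = 2.42e-05) were past 2-fold.

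**Figure D4:**
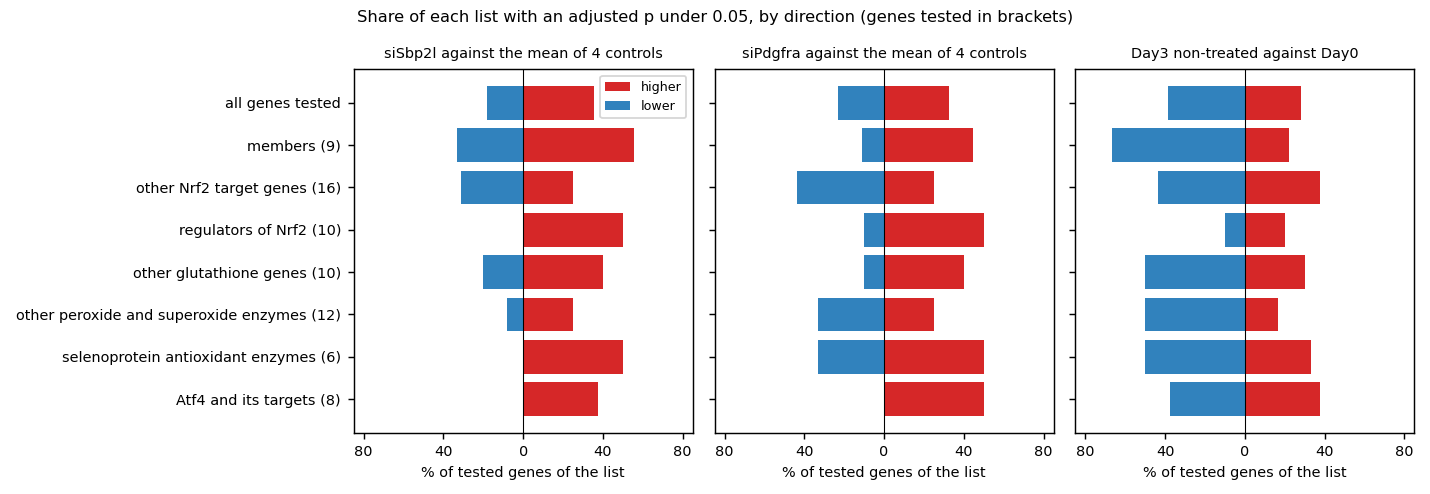
Share of the tested genes of each list (x axis, percent) with an adjusted p under 0.05, higher to the right in red and lower to the left in blue, for siSbp2l and siPdgfra against the mean of the 4 Day3 controls and for Non-treated Day3 against Day0. The top bar is the share over all tested genes (35.5% higher and 17.9% lower in siSbp2l), and the bracketed numbers of tested genes are 9 for the 10 genes described here (members) and 16 for other Nrf2 targets.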

How the data were processed

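The values are FPKM that the authors made in OmicSoft ArrayStudio from stranded mRNA libraries, per the study's methods, and deposited for 23427 genes with an mm10 annotation. Aligner, counting and strand setting are not given in the sources used here. A column is named for siSbp2l with a misspelling, and the Non-treated columns are named by day alone. The table has 0 columns of other samples. Deposited columns of other kinds (gene name, position, exon length) were used as annotation, and the columns of the authors' own comparisons (fold changes and p-values) were not used. The study's count test cannot be run on FPKM, so limma 3.58.1 in R 4.3.3 (trend and robust options) was fitted to log2(FPKM + 1). Fold changes are on that scale, which understates those of low genes. One model held the 12 Day3 libraries, with a mean for every group, and a model of all 14 served for Day0. A gene was tested at 1 FPKM or more in at least 2 libraries, which left out Nqo1. All p-values are two-sided and adjusted over all tested genes. The fit was tested on simulated data with the same replicate noise in every library and no shift of the whole table. That test therefore does not cover the uneven replicates and the shift seen here.

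Depth was recovered from whole-fragment steps in low values: 89.4% to 92.8% of those of genes with 1 transcript were within 0.1 of a whole number. The study states 2 independent replicates of cultured OPCs. Replicates of each group differed by more than sampling noise (mean chi-square over genes 2.14 to 42.7). With 2 libraries per group, p-values set a difference against the spread between such replicates. That spread was estimated over all groups in the fit, including the uneven Non-treated libraries, and not from the compared groups alone. The 10 genes and all lists were chosen with earlier results of these data known. Genes outside the 10 were named where they came from a listed pathway and passed 2-fold and an adjusted p of 0.05 in either KD, at most 4 per list. Keap1, Txnrd1, Txnrd3 and Txnip do not meet this rule and were named after their values were seen. Alternatives covered scaling, pseudocount, filter, library weights, libraries fitted, replicate block, choice of controls and each library left out. Cell type markers were listed sets. Promoter sequences are from RefSeq GRCm38.p6.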

Additional observations from a re-analysis of the deposited data

How the results depend on the processing

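The number of the 9 tested genes past the threshold was 8 in siSbp2l and ranged from 4 to 9 when 1 library was left out. The ranges were 4 to 6 for siPdgfra (5 with all libraries), 3 to 6 for siSbp2l against siPdgfra (5), 8 to 8 for Day3 against Day0 (8), 0 to 4 for Mock against Non-treated (0), 2 to 7 for NC siRNA #1 against no siRNA (5), 0 to 3 for NC siRNA #2 against no siRNA (1), 2 to 6 between the NC siRNAs (5) and 1 to 4 for siSbp2l against all 4 controls (1). With only the groups compared in the fit, NC siRNA #1 gave 2 and NC siRNA #2 gave 0. For siSbp2l against all 4 controls, median-ratio and upper-quartile scaling each gave 2 and array quality weights gave 3. Srxn1 turned to -0.19 in siSbp2l with both NC siRNAs as the only controls. In siPdgfra it turned from 0.03 to -0.065 with median-ratio scaling, -0.058 with upper-quartile scaling, -0.0012 with a pseudocount of 5, -0.15 without the Non-treated group and -0.37 with the NC siRNAs only. Without siPdgfra replicate 1 or replicate 2, Slc7a11 was -0.65 or 0.082 in siPdgfra, and 0.24 or -0.50 in siSbp2l against siPdgfra. Gclc in siSbp2l against siPdgfra was -0.050 or 0.045 without siSbp2l replicate 1 or replicate 2 and 0.0084 without siPdgfra replicate 1. Causes were not tested. Replicate numbers did not pair the libraries in a uniform way (correlations of same-numbered deviations -0.38 to 0.48 over 21 pairs of groups). Day0 and Non-treated varied together at 0.48, and Non-treated and NC siRNA #1 in the opposite order at -0.38. A block by replicate number does not cover libraries that vary together in the opposite order. With the replicate block, 7 genes passed in siSbp2l instead of 8, since Srxn1 was lost (adjusted p = 0.0609), and 4 instead of 5 in NC siRNA #1, with the other counts as before. Upper-quartile scaling gave 52.5% higher calls over all genes in siSbp2l against 66.4% as deposited, and median-ratio scaling moved this share for siPdgfra from 58.4% to 48.0% and for NC siRNA #2 from 59.4% to 45.7%. Gsr and Gclc kept direction and call in both KD groups under all 24 alternatives each. Depth limits Nqo1, and Slc7a11 at 1 to 3 FPKM.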
